A study of Mus musculus with 43 samples.

Results

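Cytosolic ribosomal protein (RP) genes encode the proteins of the large (Rpl) and small (Rps) subunits of the ribosome. They were taken here as the protein-coding genes of GENCODE vM21 whose symbol is Rpl or Rps followed by a number, with an optional a, x, y or l and a second number, together with Rplp0, Rplp1, Rplp2 and Rpsa, without pseudogenes. Of the 55401 genes in the tables, 83 met this rule (48 of the large subunit, 3 of its P-stalk, and 32 of the small subunit), and all 83 had enough counts to be tested in both assays. Fau, which encodes a ribosomal protein fused to a ubiquitin-like protein, carries another symbol and is described apart. Expression was measured in 10 RNA libraries of mouse testis at postnatal day 7 (P7), all from mice of the C57BL/6J background. Bulk RNA-seq of whole testis compared 3 WT with 3 Prmt1-dKO libraries, and Smart-seq2, a full-length cDNA method for small inputs, compared 2 WT with 2 Prmt1-dKO libraries of spermatogonia sorted for GFP. The Prmt1-dKO mice carried floxed Prmt1 alleles and Ddx4-CreERT2, a tamoxifen-inducible Cre knocked in at the germ cell gene Ddx4. The labels give tamoxifen on 3 days for WT and Prmt1-dKO samples alike, while the methods describe the injection of mice with floxed alleles and Cre, and neither states it separately for the C57BL/6J mice of the WT CUT&Tag lists. The labels call the controls WT, while the methods describe the controls of the sort as Ddx4-CreERT2 mice with 1 floxed Prmt1 allele. Promoter peaks came from 33 CUT&Tag lists of 7 histone marks, of which the WT lists are of C57BL/6J mice at P7 and P14 and the Prmt1-dKO lists, of H4R3me2s alone, are of P7. The P14 lists are titled spermatogonia but carry spermatocyte as their cell type, and the methods describe P14 as spermatocytes.

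A ribosome holds 1 copy of nearly every RP, so cells make these proteins in near-equal numbers and RP mRNAs rank among the most abundant of any tissue. Many RP mRNAs begin with a C followed by a run of pyrimidines, the 5′ terminal oligopyrimidine (TOP) motif, through which mTOR signalling and Larp1 adjust their translation and stability together. A few RP genes have paralogs that are used in particular tissues, among them Rpl10l and Rpl39l in the male germ line and Rpl3l in striated muscle. Prmt1 is the main enzyme that forms asymmetric dimethylarginine, including H4R3me2a on histone H4, and the symmetric form H4R3me2s at the same residue is made by other enzymes of the family.

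RefSeq promoter sequences (GRCm38.p6, 300 bases each, 250 before and 50 from the annotated start) were found for 63 of the 83 genes. The first set shows 6 promoters whose annotated start is itself a C followed by at least 4 pyrimidines, with that run in capitals, over 40 bases before the start and the first 20 of the transcript.
Rps27 at chr3:90213629-90213688, minus strand: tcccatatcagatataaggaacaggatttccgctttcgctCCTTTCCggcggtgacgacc
Rpl38 at chr11:114668540-114668599, plus strand: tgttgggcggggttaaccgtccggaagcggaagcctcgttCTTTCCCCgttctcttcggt
Rpl35 at chr2:39005112-39005171, minus strand: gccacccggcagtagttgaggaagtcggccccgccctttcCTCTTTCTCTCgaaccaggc
Rps18 at chr17:33955646-33955705, minus strand: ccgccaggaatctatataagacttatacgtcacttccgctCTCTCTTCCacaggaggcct
Rps10 at chr17:27635225-27635284, minus strand: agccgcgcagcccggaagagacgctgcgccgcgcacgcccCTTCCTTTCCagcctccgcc
Rpl15 at chr14:18270967-18271026, minus strand: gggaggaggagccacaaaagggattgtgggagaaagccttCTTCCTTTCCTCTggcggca
The second set shows, over the same window, 6 genes on which the comparisons below turn and whose annotated start is of another kind, with the first transcribed base in capitals (for Rps27l, the first of 2 annotated starts).
Rps4x at chrX:102189372-102189431, minus strand: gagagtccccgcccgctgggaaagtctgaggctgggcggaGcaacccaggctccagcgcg
Rpl22l1 at chr3:28805468-28805527, plus strand: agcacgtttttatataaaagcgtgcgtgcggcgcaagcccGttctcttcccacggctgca
Rpl39l at chr16:10170188-10170247, plus strand: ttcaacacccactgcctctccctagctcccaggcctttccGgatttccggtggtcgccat
Rpl10l at chr12:66284382-66284441, minus strand: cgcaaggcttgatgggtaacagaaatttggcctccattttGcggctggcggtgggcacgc
Rps27l at chr9:66946046-66946105, plus strand: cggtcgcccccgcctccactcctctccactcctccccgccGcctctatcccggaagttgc
Rpl7l1 at chr17:46782637-46782696, minus strand: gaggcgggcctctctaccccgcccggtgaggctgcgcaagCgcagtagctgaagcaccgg
A start of the first kind was found in 13 of 63 RP genes (20.6%) and in 3.01% of the 27025 genes in the promoter table. A pyrimidine run of this kind beginning within 5 bases of the annotated start was present in 29 of 63 (46.0%), against 21.2% of all genes. CTTTCC within 30 bases of the start on the gene strand was present in 12 of 63 (19.0%, against 3.4% of all genes). CCGGAAG, a core of ETS-factor sites, was found on either strand within the 300 bases of 26 RP genes (41.3%, against 9.93%), and AAGATGG, a core of YY1 sites, in 10 (15.9%, against 7.28%). The GC box letters GGGCGG were found in 39 (61.9%, against 38.2%), and TATAAA 40 to 20 bases before the start in 1 (1.59%, against 2.25%). These letters were matched exactly, matches of CCGGAAG and AAGATGG can share their AAG, and a match describes the sequence only.

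Library totals lay between 12396345 and 18547103 expected counts. Prmt1 itself was lower in Prmt1-dKO than in WT testes (167 ± 27.9 against 234 ± 14.1 CPM, SD, n = 3 each, log2 fold change -0.49, FDR = 0.0334 by edgeR's quasi-likelihood test). In the sorted spermatogonia it had 99.5 ± 18.3 against 183 ± 47.5 CPM (n = 2 each, log2 fold change -0.88, FDR = 0.133). Levels of single genes are given as CPM, counts scaled to a common library size with TMM factors, and compare libraries of 1 assay. Sums over cell type markers are CPM of library totals, without these factors. Nothing in the labels states whether replicates came from separate mice, so the p-values measure the spread between these libraries, which may be technical. In both assays fewer cells of a type and less RNA per cell cannot be told apart.

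RP transcripts took a larger share of every Prmt1-dKO library than of any WT library of the same assay. In whole testis the 83 genes held 4.13%, 3.96% and 4.6% of all counts in the WT libraries and 5.72%, 9.14% and 6.74% in the Prmt1-dKO libraries. The group means were 4.23 ± 0.331% and 7.20 ± 1.76% (SD, n = 3 each), and Prmt1-dKO replicate 2 stood highest. In sorted spermatogonia the shares were 4.04% and 4.45% in WT and 6.70% and 5.95% in Prmt1-dKO, with means of 4.25 ± 0.290% and 6.33 ± 0.529% (n = 2 each). Measured as TPM, which corrects for transcript length, the genes made up 15.7 ± 0.825% of WT and 23.1 ± 3.34% of Prmt1-dKO testis RNA, and 11.2 ± 0.285% and 16.2 ± 1.14% of the sorted cells. The genotypes did not overlap on either scale in either assay, and no test was made of these sums.

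**Figure D1:**
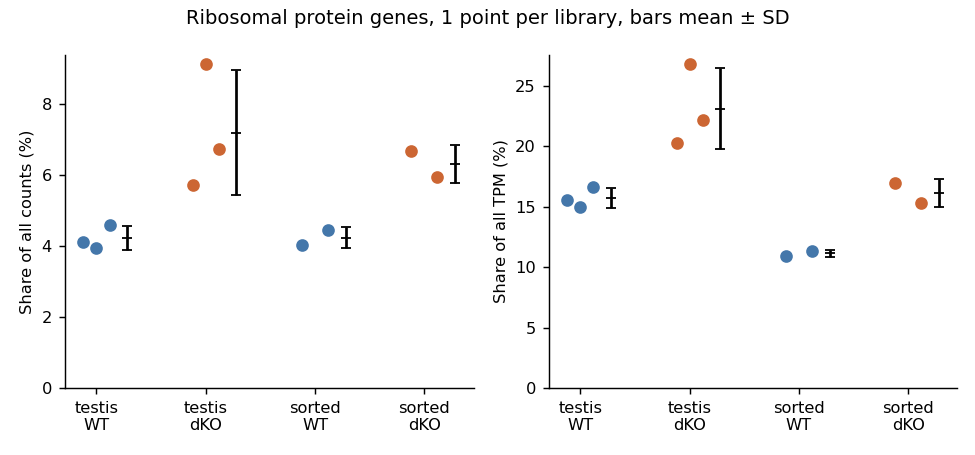
Percentage of all counts (left) and of all TPM (right) held by the 83 RP genes in each library, with 1 point per library and mean ± SD beside it. The Prmt1-dKO libraries (5.72% to 9.14% of counts in testis, 5.95% and 6.70% in sorted cells) lie above the WT libraries (3.96% to 4.6%, and 4.04% and 4.45%).

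Levels per length (TPM) ran from 2.07 to 4756 among RP genes of WT testis. In WT testis the median RP gene had a mean of 1746 TPM, 73 of 83 reached 1000 TPM, and 61 were among the 100 genes of highest TPM. The highest levels were those of Rplp1, an acidic protein of the P-stalk that recruits elongation factors (4756 ± 342 TPM, n = 3), Rpl13a (4618 ± 457) and Rps14 (4371 ± 122). Rplp1 and Rpl13a did not differ beyond their spread. The lowest were Rpl3l (2.07 ± 0.499 TPM), Rpl39l (80.5 ± 6.86) and Rpl10l (88.1 ± 2.03), followed by Rpl7l1 (91.0 ± 4.50), and of these the last pair did not differ beyond their spread. In WT sorted spermatogonia the median was 1072 TPM and 38 RP genes were among the 100 highest genes. There Rpl41, the shortest ribosomal protein, led with 4874 ± 333 TPM (n = 2), and Rps28 was the third (3856 ± 10.7). At the low end of the sorted cells stood Rpl3l (15.8 ± 15.2 TPM), Rpl10l (58.6 ± 13.3) and Rpl7l1 (87.2 ± 20.1), and next Rps4x (93.6 ± 28.5). Across the 83 genes the log2 TPM + 1 of the 2 WT groups had a Pearson's r of 0.74 and a Spearman's rho of 0.58, a description over genes that share libraries and are not independent replicates. The Smart-seq2 libraries had cDNA under 500 bp removed, and RP transcripts are short (350 to 2196 bases, median 664). Levels of the 2 assays were therefore not compared further, apart from the ranks of Rps4x and Rps12 below.

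Whole testes of Prmt1-dKO mice had more of nearly every RP mRNA. Of the 83 genes, 72 were higher and 0 were lower at an FDR below 0.05 (edgeR's quasi-likelihood test over 16554 genes), where 10.6% of all genes tested were higher and 8.51% were lower. At an unadjusted p below 0.05, 80 were higher and 0 lower, where 3016 of all 16554 genes were higher and 2591 lower. The median log2 fold change was 0.73, a 1.66-fold difference, with quartiles of 0.64 and 0.82, beside a median of 0.02 over all genes tested. A total of 4 passed the additional fold change of 2 (5.32% of all genes were higher by this rule), namely Rpl22l1, Rpl37, Rps27 and Rpl36. For 75 of the 83 genes the lowest Prmt1-dKO value exceeded the highest WT value, as it did for 20.9% of all genes. RP genes moved together between libraries, also within WT. There 12, 2 and 82 of the 83 lay above the WT mean in replicates 1, 2 and 3. The genes are therefore not independent, and these counts rest on 3 against 3 libraries. Counts of RP genes in sorted cells likewise rest on 2 against 2. The large subunit had 42 of 48 genes higher (median 0.75), the small subunit 28 of 32 (median 0.73) and the P-stalk 2 of 3 (median 0.64).

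The counts moved most when a WT library was left out. Without WT replicate 1 or 2, 10 genes were higher at an FDR below 0.05, and without WT replicate 3, 44, while the median log2 fold change was 0.70, 0.67 and 0.79. Without Prmt1-dKO replicate 2, the library of highest RP share, 76 genes were higher and the median fell to 0.51. No RP gene was lower at an FDR below 0.05 in any of the 13 alternatives run for whole testis. The share of all genes called in these fits is not given here, so the moves of the count cannot be read as particular to RP genes.

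Rpl22l1, described with its parent below, and 3 core proteins had the largest increases among the genes that passed in testis. Rps27, a zinc-binding protein of the small subunit (ENSMUSG00000090733.6, chromosome 3, 90212522 to 90213651), had 223, 221 and 249 CPM in WT and 333, 583 and 530.1 CPM in Prmt1-dKO testes. Its groups did not overlap, and it rose by 1.06 on the log2 scale (SE 0.19, FDR = 0.00643). Rpl36 of the large subunit (chromosome 17, 56613416 to 56614243) had 186, 163 and 214 CPM in WT and 263, 612 and 341 CPM in Prmt1-dKO testes. Its log2 fold change was 1.11 (SE 0.27, FDR = 0.0232). Rpl37 had 208, 188 and 229 against 288, 587 and 383 CPM and rose by 1.01 on the log2 scale (SE 0.23, FDR = 0.0166). In both genes Prmt1-dKO replicate 2 was highest and replicate 1 lowest of the Prmt1-dKO libraries, with all 3 above WT. Rpl17, near the exit of the peptide tunnel, went from 514, 500.1 and 566 to 785, 1269 and 1105 CPM (log2 fold change 1.0, FDR = 0.0050). Rpl34 (0.88, FDR = 0.00466), Rpl12 of the stalk base (0.89, FDR = 0.00751) and Rps15a (0.77, FDR = 0.00752) complete the 6 genes of smallest p with Rpl22l1, Rpl17 and Rps27.

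In sorted spermatogonia most RP genes were also higher in Prmt1-dKO, and edgeR called none. Their median log2 fold change was 0.75 (quartiles 0.60 and 0.95), beside 0.15 over all genes tested. With scaling by library totals these medians were 0.58 and -0.01. edgeR's quasi-likelihood test called 0 of 83 at an FDR below 0.05, as it called 0 of all 16443 genes (0%), and the smallest FDR of any gene, 0.0774, was shared by 38 RP genes. At an unadjusted p below 0.05, 71 RP genes were higher and 0 lower, where 16.4% of all genes were higher. DESeq2, the tool of the study, called 68 higher and 0 lower at an adjusted p below 0.05, where 8.34% of the 17373 genes it tested were higher. For 79 RP genes, and for 36.3% of all genes, neither Prmt1-dKO value was as low as a WT value. A fit without 1 library leaves that genotype a single one and assumes that it varies like the other genotype, so calls of such fits are not given here.

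**Figure D2:**
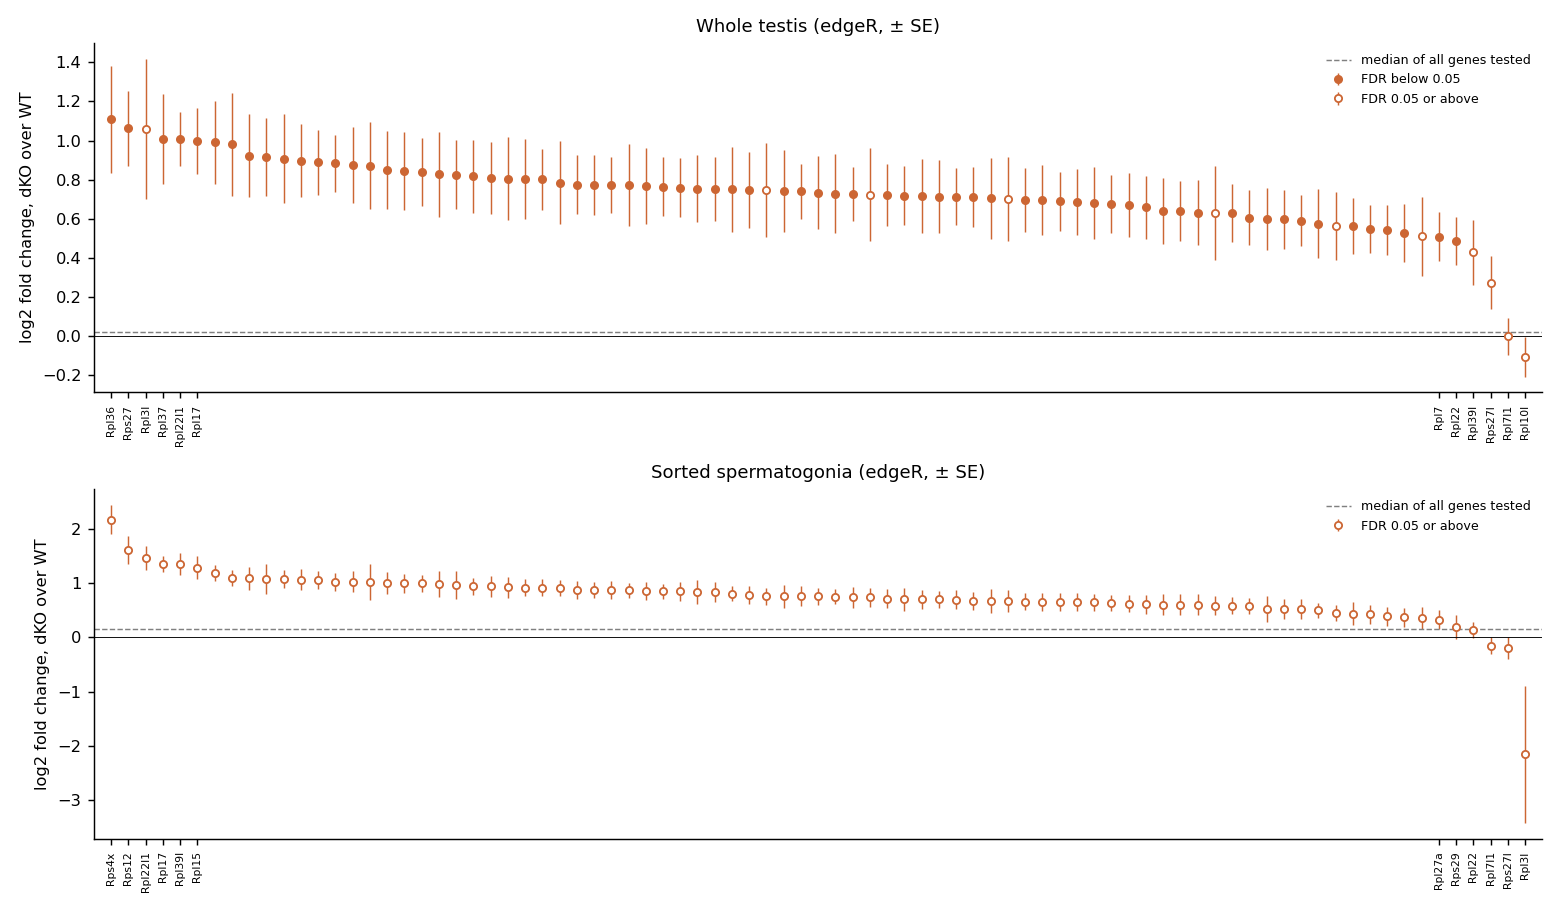
Log2 fold change (Prmt1-dKO over WT, ± SE, edgeR) of the 83 RP genes, ranked within whole testis (top, n = 3 each) and sorted spermatogonia (bottom, n = 2 each), filled where the FDR was below 0.05, with the 6 genes at each end named. Most genes form a plateau (medians 0.73 and 0.75) well above the median of all genes (dashed, 0.02 and 0.15). The paralogs Rpl7l1, Rps27l and, in testis, Rpl10l lie at its foot. In sorted cells Rpl3l lies lowest (-2.16), a value that rests on WT replicate 1.

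In the sorted cells Rps4x moved furthest. Rps4x, the X-linked gene of a core small-subunit protein (ENSMUSG00000031320.9, chromosome X, 102184941 to 102189394), had 67.8 and 43.1 CPM in WT and 256 and 244 CPM in Prmt1-dKO spermatogonia. The log2 fold change was 2.17 (SE 0.27, FDR = 0.0774 by edgeR and 2.27e-10 by DESeq2). The other X-linked RP genes had values near the RP median, 0.76 for Rpl10, 0.94 for Rpl36a and 0.67 for Rpl39. Rps12, of the small subunit head, had 37.5 and 53.2 against 150.1 and 128 CPM (1.62, SE 0.26, FDR = 0.0774). By TPM in WT, Rps4x and Rps12 ranked 80 and 78 of the 83 genes in sorted cells, but 66 and 8 in testis. Whether their low level in the sorted libraries bears on these fold changes was not tested. Rpl22l1 had 98.5 and 137 against 346 and 303 CPM (1.46, SE 0.22, FDR = 0.0774), and Rpl17 had 276 and 298 against 783 and 689 CPM (1.36, SE 0.15, FDR = 0.0774). None of these 4 genes overlapped between genotypes.

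The log2 fold changes of single RP genes were next compared between the assays. Across the 83 genes, the log2 fold changes in testis and in sorted cells had a Pearson's r of 0.02 and a Spearman's rho of 0.06, a description over genes from assays that share no library. Within testis the log2 fold changes had an SD of 0.19 over the genes, and 0.13 without the 6 paralogs whose symbol ends in l or l1. SEs of single genes were of similar size or larger (0.16 for Rpl10 and 0.21 for Rpl13a). The order of genes is thus not resolved within testis, and the r cannot show whether it differs between the assays. The test of the interaction of assay and genotype, over 19608 genes of which 19.0% passed an FDR below 0.05, called 3 RP genes. Rps4x had a larger difference in sorted spermatogonia by 1.63 on the log2 scale (SE 0.30, FDR = 0.00629), Rpl10l by 1.21 (SE 0.30, FDR = 0.0232) and Rpl39l by 1.01 (SE 0.29, FDR = 0.0395). Rps4x passed with each of the 10 libraries left out in turn (highest FDR 0.0265), while Rpl10l and Rpl39l passed in 3 of 10 each. Cell content and library method cannot be told apart in this comparison.

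**Figure D3:**
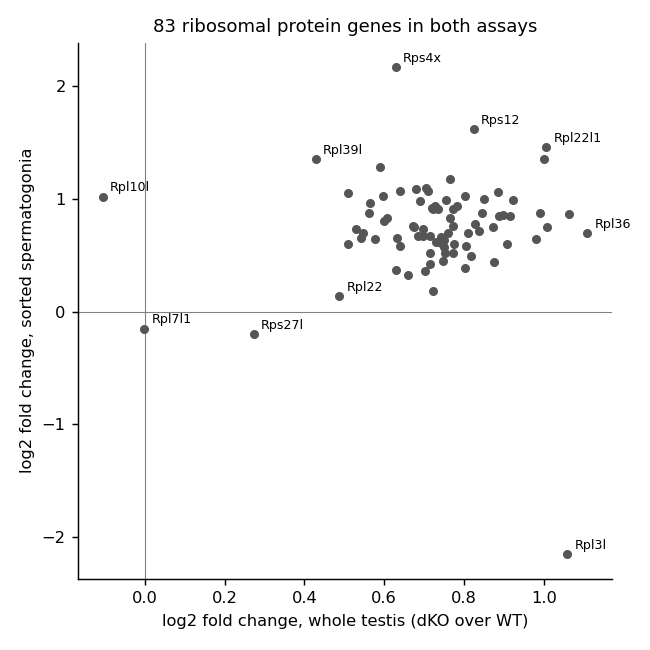
Log2 fold change (Prmt1-dKO over WT) of each RP gene in whole testis (horizontal) and in sorted spermatogonia (vertical), 1 point per gene. The points form a cloud around the medians of 0.73 and 0.75 (r = 0.02), and Rps4x (2.17), Rpl10l, Rpl39l and Rpl3l stand apart from it.

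Paralogs did not move as a group. Rpl22l1, the paralog of Rpl22 (ENSMUSG00000039221.10, chromosome 3, 28805436 to 28807424), had 58.0, 61.0 and 67.3 CPM in WT and 103, 129 and 142 CPM in Prmt1-dKO testes. It rose by 1.01 (SE 0.14, FDR = 0.00254), the smallest p of any RP gene in testis, while Rpl22 rose by 0.49 (SE 0.12, FDR = 0.0240). In sorted cells Rpl22 had 232 and 236 CPM in WT and 269 and 246 CPM in Prmt1-dKO, which differed by 0.14 on the log2 scale (SE 0.14, FDR = 0.679). Where a paralog and its parent share sequence, RSEM may split reads between them, so values of such pairs are uncertain. Rpl39l had 29.1, 24.2 and 27.3 CPM in WT and 28.3, 43.4 and 36.7 CPM in Prmt1-dKO testes, which overlap (0.43, SE 0.16, FDR = 0.101). In sorted cells Rpl39l had 59.0 and 54.9 against 162 and 129 CPM (1.35, SE 0.21, FDR = 0.0774), beside 66.1 and 55.1 against 98.1 and 94.4 CPM for Rpl39 (0.67, SE 0.21, FDR = 0.143).

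Rpl10l, an autosomal copy of the X-linked Rpl10 (ENSMUSG00000060499.7, chromosome 12, 66283379 to 66284401), had 41.8, 42.9 and 45.9 CPM in WT and 40.4, 39.9 and 41.1 CPM in Prmt1-dKO testes. These values, the only RP gene below WT in every testis library, differed by -0.11 (SE 0.10, FDR = 0.498), while Rpl10 rose by 0.67 (SE 0.16, FDR = 0.0219). In sorted cells Rpl10l had 43.8 and 32.2 against 92.6 and 61.7 CPM (1.02, SE 0.33, FDR = 0.157). Rpl7l1, which is linked to ribosome assembly, had 115, 112 and 114 against 112, 121 and 108 CPM in testis (-0.00, SE 0.10, FDR = 0.996) and 127 and 128 against 111 and 119 CPM in sorted cells (-0.15, SE 0.16, FDR = 0.673). Its parent Rpl7 rose by 0.51 in testis (FDR = 0.0241) and had a log2 fold change of 1.05 in sorted cells (FDR = 0.0774).

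Rps27l, a p53-responsive paralog of Rps27, had 64.6, 61.7 and 69.7 against 66.6, 93.2 and 77.2 CPM in testis (0.27, SE 0.14, FDR = 0.194). In sorted cells it had 295 and 395 against 324 and 276 CPM (-0.20, SE 0.21, FDR = 0.667), where Rps27 had 238 and 256 against 467 and 433 CPM (0.87, SE 0.14, FDR = 0.0774). Rpl3l had 0.937, 1.65 and 1.07 against 2.12, 3.5 and 2.09 CPM in testis (1.06, SE 0.36, FDR = 0.0706), beside Rpl3, which rose by 0.61 (FDR = 0.0188). In sorted cells Rpl3l had 24.7 and 3.35 against 2.64 and 3.64 CPM (-2.16, SE 1.26, FDR = 0.410), a value that rests on WT replicate 1. With that library left out the log2 fold change of Rpl3l was -0.08. Besides these paralogs, the genes that missed the FDR in testis were Rpl11, Rps15, Rps2, Rps29, Rpl41 and Rplp2, with log2 fold changes of 0.51 to 0.75 and FDRs of 0.0503 to 0.114.

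**Figure D4:**
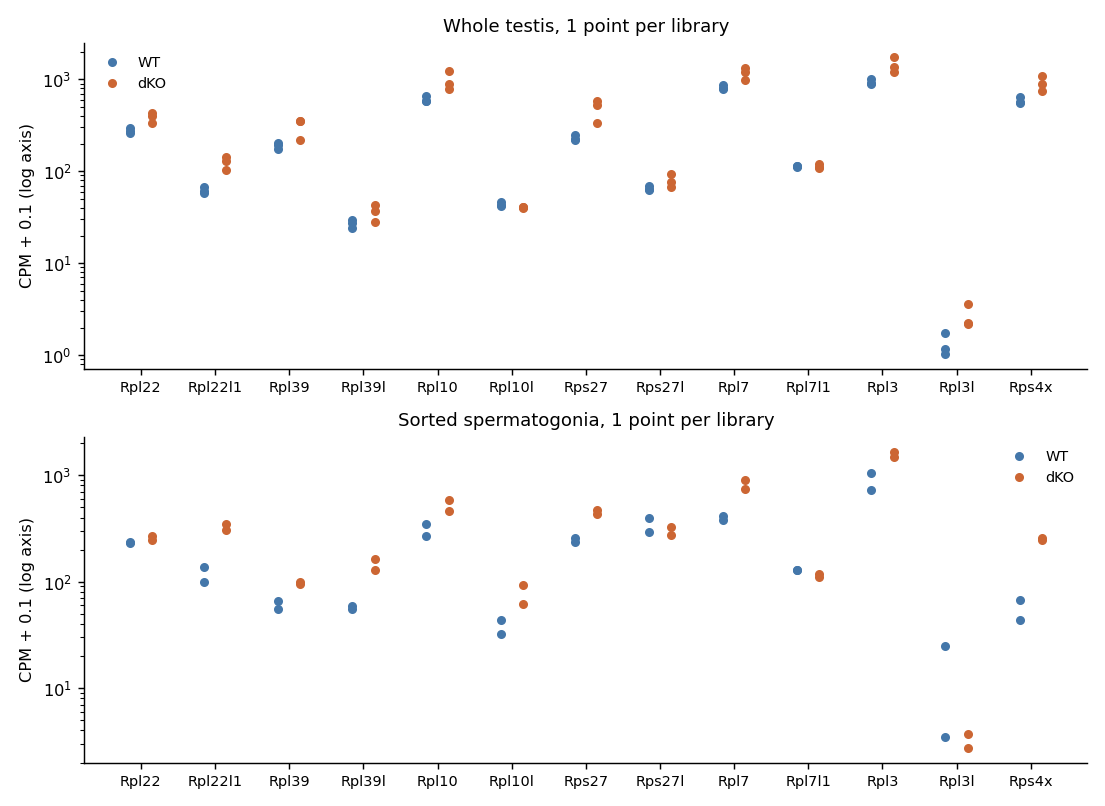
CPM + 0.1 on a log axis of the 6 paralogs, their parents and Rps4x in each WT and Prmt1-dKO library, whole testis above and sorted spermatogonia below, 1 point per library. Rpl22l1 separates by genotype in both assays, Rpl10l and Rpl39l in sorted cells but with overlap or a small difference in testis, and Rpl7l1 and Rps27l lie close together in both.

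A set of other lists, chosen for their function, was read from the same fits. The values over all genes given above for a rule and assay apply to them. Genes that work beside the ribosome came first. Of 4 partners outside the symbol rule, 3 rose in testis, among them Fau (0.87, FDR = 0.0296) and the scaffold Rack1 (0.66, FDR = 0.0109), and Rpl36al did not pass (0.27, FDR = 0.396). In sorted cells 0 of these 4 passed by edgeR or DESeq2 (1 higher at an unadjusted p below 0.05), with a median of 0.40. Of 18 translation factors, 4 rose and 1 fell in testis (median 0.28), and 0 passed in sorted cells by edgeR (median 0.70, 11 higher and 0 lower at an unadjusted p below 0.05, 10 higher by DESeq2). The 4 were Tpt1 (0.65), Eif3h (0.50), Eef1b2 (0.54) and Eef1a1 (0.42), and the scaffold Eif4g1 fell by 0.72. Of 40 ribosome biogenesis genes, 3 rose (Nob1 0.55, Imp3 0.48 and Gnl3 0.52) and 1 fell (Rrs1, -0.48), with a median of 0.02 in testis and 0.42 in sorted cells, where edgeR called 0 and DESeq2 8 higher, and 14 were higher and 2 lower by unadjusted p. Of 12 genes of RNA polymerase I, which makes ribosomal RNA, Taf1d (0.83), Polr1c (0.47) and Polr1d (0.46) rose in testis, and the medians were 0.03 and, with 0 called by edgeR, 2 at an unadjusted p below 0.05 and 2 by DESeq2, 0.27 in sorted cells. None of 15 genes that regulate TOP mRNAs, such as Mtor and Larp1, passed in either assay by edgeR (3 higher and 3 lower at an unadjusted p below 0.05 in testis, 2 and 2 in sorted cells), and DESeq2 called 0 higher and 1 lower in testis and 1 and 1 in sorted cells.

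Mitochondrial ribosomal proteins, the nuclear-encoded counterparts in mitochondria, had medians nearer to that of all genes. Of 78 genes, 4 were higher and 0 lower in testis (Mrps9, Mrps18b, Mrpl30 and Mrpl33, 0.39 to 0.52), with a median of 0.11. Their median in sorted cells was 0.04, with 0 called by edgeR, 3 higher and 2 lower by DESeq2, and 9 higher and 3 lower by unadjusted p.

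Transcript length and fragment length were read beside the RP genes. Among other protein-coding genes under 1000 bases the median log2 fold change in testis was 0.18 (1041 genes, 8.55% higher), and among those of them with at least 100 TPM 0.17 (345 genes), beside 0.75 for the 71 RP genes under 1000 bases. In sorted cells the same medians were 0.21, 0.08 and 0.75. Within the RP genes the log2 fold change in testis went down with log2 length (r = -0.44, 83 genes), and in sorted cells the r was -0.08. The mean fragment length that RSEM estimated was 261 to 263 bases in WT testis libraries and 271, 253 and 244 bases in Prmt1-dKO replicates 1 to 3. It was 225 and 199 bases in WT and 227 and 206 bases in Prmt1-dKO sorted libraries. Its part in the result was not tested.

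Levels of cell type markers differed between genotypes, and numbers of cells cannot be told from RNA per cell. In testis, 6 of 13 Sertoli cell markers, 4 of 7 Leydig cell markers and 5 of 7 peritubular myoid markers tested were lower at an FDR below 0.05, and 1 of 13 germ cell markers (Ddx4, -0.67) was lower. One Leydig marker, Lhcgr, was higher (0.69, FDR = 0.0223), and Fdx1 (-0.04) and Hsd3b1 (-0.28) did not pass. Summed levels went from 6402 to 7285 CPM in WT to 5154 to 5535 CPM in Prmt1-dKO for Sertoli cells, from 458 to 565 to 225 to 249 CPM for Leydig cells, and were 1523 to 1715 and 1372 to 1663 CPM for germ cells. Macrophage markers summed to 124 to 147 CPM in WT and 152 to 198 CPM in Prmt1-dKO testes, 2 of 10 being higher and 1 lower. Of 7 endothelial markers 3 were higher and 1 lower (204 to 217 against 210 to 250 CPM). Erythroid markers reached 2423 CPM in Prmt1-dKO replicate 2, the library of highest RP share, beside 693 to 1028 CPM in the other 5, and 0 of 5 passed. The labels give spermatogonia as the cell type of these libraries, and all 14 Sertoli and all 8 Leydig markers had counts in them.

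In sorted cells, 9 of 10 macrophage markers (all but Cd14) and 7 of 7 endothelial markers had no count in WT, and their sums were 0 to 5.98 and 0 CPM. In Prmt1-dKO 9 of 10 and 5 of 7 had counts, with sums of 72.8 to 75.3 and 4.07 to 6.79 CPM, and Adgre1, Emcn and Vwf were at 0. Erythroid markers summed to 8.68 to 10.7 CPM in WT and 30.1 to 70.6 CPM in Prmt1-dKO, and Sertoli markers to 495 to 511 and 695 to 876 CPM. Germ cell markers summed to 3027 to 3098 CPM in WT and 2859 to 2866 CPM in Prmt1-dKO, with all 14 present. This sum was taken before TMM scaling, and on that scale it was lower in Prmt1-dKO. Tex101, the marker of highest level, had 1106 and 1168 against 493 and 456 CPM before TMM scaling. With TMM scaling Tex101 had 1074 ± 18.4 against 505 ± 47.9 CPM (log2 fold change -1.09, FDR = 0.0774 by edgeR). The TMM-scaled means of the 14 markers did not add up to less in Prmt1-dKO, so the fall depends on the scaling. Of the 14, 12 had a log2 fold change above 0 (median 0.47, with 0 called by edgeR, 2 higher and 1 lower both at an unadjusted p under 0.05 and by DESeq2), and without Tex101 the sum was 1859 to 1992 CPM in WT and 2373 to 2403 CPM in Prmt1-dKO. Leydig markers summed to 25.1 to 40.7 and 39.9 to 47.0 CPM, with Cyp11a1 and Cyp17a1 at 0 in both, and peritubular myoid markers to 10.2 to 35.4 and 19.5 to 24.0 CPM. The part of these cells in the RP difference was not tested.

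At P7 most RP promoters carried the marks of active genes. A promoter was counted as marked where at least 2 lists of a group had a peak summit within 3000 bp of a transcription start of the gene. H3K4me3, a mark of active promoters, was at 81 of 83 RP promoters at P7 (60.7% of 21951 protein-coding genes) and at 83 of 83 at P14 (63.1%). H3K27ac, a mark of active promoters and enhancers, was at 62 at P7 (31.0%) and 81 at P14 (48.9%). The 2 genes without H3K4me3 at P7 were Rpl39l and Rpl3l, and those without H3K27ac at P14 were Rpl10l and Rpl3l. Rps4x, Rps12, Rpl36, Rpl7l1 and Rplp0 were among the 21 without H3K27ac at P7.

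Arginine marks were called at a smaller share of RP promoters than of the promoters of other strongly expressed genes. At P7, H4R3me2a was at 12 RP promoters (14.5%, beside 15.3% of coding genes), H3R2me2a at 6 (7.23%, beside 11.0%), H3R8me2a at 6 (7.23%, beside 9.71%), H4R3me1 at 5 (6.02%, beside 10.8%) and H4R3me2s at 23 (27.7%, beside 17.8%). Among the 1791 other coding genes with at least 100 TPM in WT sorted spermatogonia these shares were 25%, 15.4%, 19.3%, 18.1% and 37.7%. At P14, H4R3me2a was at 49 (59.0%, beside 49.0%), H3R2me2a at 51 (61.4%, beside 51.3%), H3R8me2a at 37 (44.6%, beside 33%), H4R3me1 at 35 (42.2%, beside 29.9%) and H4R3me2s at 45 (54.2%, beside 34.2%). For the same 1791 genes, chosen by their level at P7, the P14 shares were 80.0%, 78.8%, 66.2%, 57.0% and 66.5%. For H3K4me3 and H3K27ac they were 98.6% and 72.6% at P7 and 99.4% and 96.1% at P14, beside 97.6% and 74.7%, and 100% and 97.6%, for RP genes. No test was made, since genes of 1 list are not independent replicates and the read numbers behind the lists are unknown. Peak lists were longer at P14 for most marks and the cell type label differs, so that age, cell type and list length cannot be told apart.

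**Figure D5:**
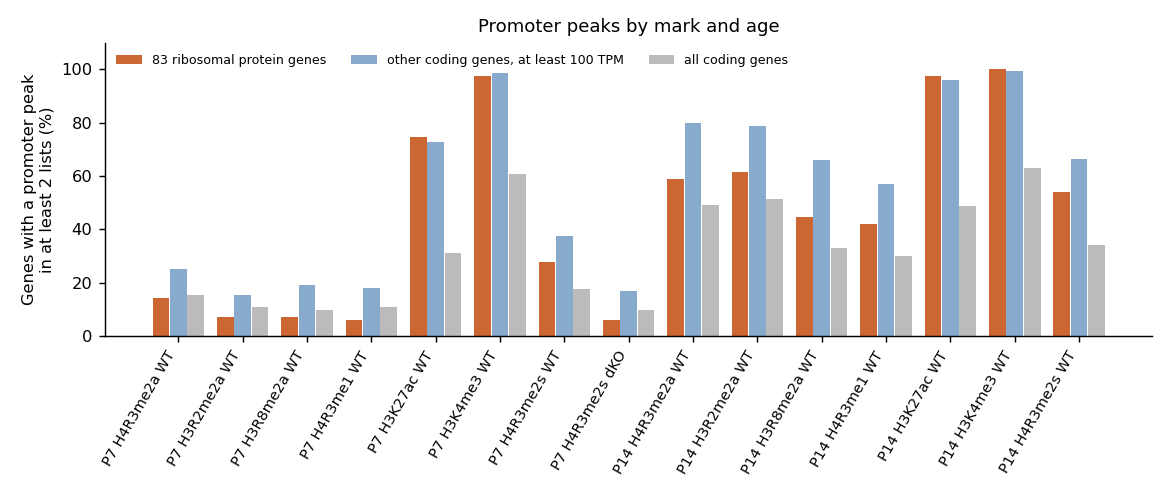
Percentage of genes with a promoter peak in at least 2 lists, for each mark, age and genotype, in the 83 RP genes, the 1791 other coding genes of at least 100 TPM in WT sorted spermatogonia, and all 21951 coding genes. RP genes lie near strongly expressed genes in H3K4me3 and H3K27ac (97.6% and 74.7% at P7) and lie below them in every arginine mark.

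No arginine mark was found at 53 RP promoters at P7 (63.9%), beside 64.9% of coding genes and 41.7% of the 1791 strongly expressed genes, and at 18 at P14 (21.7%, beside 36.2% and 8.21%). All 5 were found at 1 promoter at P7 (1.2%, beside 1.33% and 2.35%) and at 21 at P14 (25.3%, beside 16.6% and 39.6%). That 1 promoter was Rps27l, which had a peak in every list of all 15 groups, followed by Rpl7 with every list of 14 groups and Rpl21 with 12. At P7, summits lay within 500 bp of a start in 93.5% of RP peaks for H3K27ac and 92.0% for H3K4me3. For the arginine marks of WT this share ran from 56.0% (H3R2me2a) through 60% (H4R3me1) and 69.9% (H4R3me2s) to 80.0% (H4R3me2a) and 80.6% (H3R8me2a), and at P14 from 87.3% to 92.0%. The median width of the peaks was 1199 bp for H3K4me3 and 295 bp for H4R3me2a at P7.

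H4R3me2s, the only mark with lists of both genotypes, was called at fewer RP promoters in Prmt1-dKO. Peaks were present at 48 and 35 RP promoters in the WT lists and at 23 and 12 in the Prmt1-dKO lists of P7, so the lists did not overlap. These were 57.8% and 42.2% of RP genes in WT, beside 33.1% and 33.7% of coding genes, and 27.7% and 14.5% in Prmt1-dKO, beside 27.5% and 23.1%. The lists held 19981 and 36145 peaks in WT and 33941 and 28221 in Prmt1-dKO, so the shortest list had the most RP promoters. By the rule of 2 lists, 23 RP promoters were marked in WT and 5 in Prmt1-dKO (6.02%, where 9.82% of coding genes were marked). The count in Prmt1-dKO was 0.217 of that in WT for RP genes, and 0.552 of it for all coding genes, and the strongly expressed genes went from 37.7% to 17.0%. The WT mice of these lists were C57BL/6J, so genotype cannot be told apart from the Cre and floxed alleles or from any difference in tamoxifen. Peaks in both WT lists and neither Prmt1-dKO list were found at 9 genes, Rpl6, Rpl19, Rpl30, Rplp1, Rps6, Rps9, Rps13, Rps21 and Rps25 (10.8%, beside 5.54% of coding genes and 11.2% of strongly expressed genes). The opposite was found at 2 genes, among them Rps24 (2.41%, beside 1.9% and 1.51%). Rpl7, Rps27l and Rps29 had peaks in all 4 lists. No peak of this mark at P7 stood at an RP promoter in 2 lists of a genotype at a q of at most 0.01, where 1.56% of coding genes passed in WT and 0.246% in Prmt1-dKO.

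Expression changes were also read by promoter state. The median log2 fold change of the 20 RP genes marked by H4R3me2s in WT only was 0.73 in testis and 0.72 in sorted cells, and that of the 58 marked in neither genotype was 0.75 and 0.76. It was 0.51 and 0.18 for the 3 marked in both (Rpl7, Rps27l and Rps29), and 0.71 and 0.79 for the 2 marked in Prmt1-dKO only. For H4R3me2a at P7, the 12 marked genes had medians of 0.71 and 0.83 and the 71 others 0.75 and 0.75. The 13 genes with a pyrimidine run at the annotated start had medians of 0.77 and 0.75, and the 50 with another start 0.72 and 0.74. These are descriptions of groups of genes and carry no test.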

How the data were processed

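RNA was measured in 10 libraries (6 bulk RNA-seq, 4 Smart-seq2) and 7 histone marks in 33 CUT&Tag samples, grouped by the sample labels. For the gene tables the authors trimmed reads with fastp 0.23.2, aligned them by STAR (mm10) and estimated gene levels by RSEM (version and annotation not given in the sources used here). The expected counts the authors deposited are not normalized, and the TPM the authors deposited are scaled by RSEM within each library. The effective lengths beside them gave the mean fragment length. For the peak lists the authors ran MACS2 2.1.0 on each sample, and each deposited list holds a fold enrichment (a ratio to local background) and the −log10 p and −log10 q of a peak. Whether reads were counted by strand is not given in the sources used here, so that genes overlapping on opposite strands are uncertain.

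Of 55401 gene identifiers, 55141 matched GENCODE vM21. Expected counts were rounded, and low genes were left out by filterByExpr (minimum count 10, minimum total 15). All remaining genes entered quasi-likelihood fits (R 4.3.3, edgeR 4.0.16) with TMM factors, 1 per assay and 1 joint fit with an interaction term. A call needed an FDR (Benjamini-Hochberg) below 0.05, and a stricter one also a fold of 2. DESeq2 1.42.0 was run as an alternative, since the study used it. Promoters reached 3000 bp from a start. Other steps used Python 3.11.15 with pandas 2.3.3, scipy 1.17.1 and matplotlib 3.10.9. The read numbers behind the peak lists are unknown.

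The RP genes, the other lists and the tests were chosen with earlier results of these data known. Genes named are those called, up to 6 per assay by p, the 3 with the largest change per direction and assay at a mean of at least 50 counts, the 3 highest and lowest in TPM, the paralogs ending in l or l1 with their parents, promoters without H3K4me3, with peaks in the most groups or with H4R3me2s in both lists of 1 genotype only, and called genes of other lists (up to 4 per list and direction). Other genes named, such as Rpl36a, Rpl21 and those listed as exceptions to a count, were chosen after their values were seen. Values of a few genes are not reported here.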

Additional observations from a re-analysis of the deposited data

Results flagged for a closer look

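The genotype difference of 3 RP genes of 83 differed between sorted spermatogonia and whole testis by the interaction test of edgeR. Of all 19608 genes in that test, 19.0% passed. Rps4x was larger in sorted cells by 1.63 on the log2 scale (FDR = 0.00629), Rpl10l by 1.21 (FDR = 0.0232) and Rpl39l by 1.01 (FDR = 0.0395). In all 3 the sorted libraries did not overlap between genotypes. With 1 library left out at a time, the difference lay between 1.35 and 2.01 for Rps4x, 0.91 and 1.49 for Rpl10l, and 0.74 and 1.19 for Rpl39l. Rps4x passed in 10 of these 10 fits, and Rpl10l and Rpl39l in 3 each, with highest FDRs of 0.0867 and 0.146. Rpl39l also missed the threshold with RLE scaling (FDR = 0.0631), with the replicate block (0.113) and without the filter on low counts (0.0725), where Rps4x and Rpl10l passed. No group had enough samples to test for a single aberrant library.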

How the results depend on the processing

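The direction of the RP difference did not change in any alternative run on the whole set. In whole testis, the RP genes higher at an FDR below 0.05 numbered 74 to 78 with RLE or library-total scaling, TMM without the RP genes, no filter on low counts, or DESeq2, 72 with pseudogene counts added, and 10 to 78 with 1 library left out at a time. Of these, the numbers at 2-fold or more were 2 with DESeq2, 7 with library totals, 2 without the filter, and 0 to 15 with 1 library left out. The shares of all genes called in these alternatives are not given here, so the moves of the counts cannot be read as particular to RP genes. The pseudogenes added were only the 298 named after an RP gene, for 60 of the RP genes. In testis their counts equalled 0.696% to 0.827% of RP counts, so this alternative could move the result little. In sorted spermatogonia DESeq2 called 68 higher (12 at 2-fold or more). With library totals the median log2 fold change in sorted cells was 0.58. The interaction test with 1 library left out is described above for the RP genes it called.

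The replicate numbers shared by the genotypes did not pair the libraries: deviations of same-numbered libraries correlated at 0.08, -0.22 and -0.12 in testis and 0.02 in sorted cells. With the number as a replicate block, edgeR called 42 RP genes higher in testis (2 at 2-fold or more), 0 in sorted cells, and 2 in the interaction test. The share of all genes called with this block is not given here, so the lower counts cannot be read as particular to RP genes.

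Promoter counts depended most on the threshold of the peaks. Brackets give the coding genes, of 21951, marked by the same rule. At a q of at most 0.01 the marked RP promoters at P7 were 0 for H4R3me2a (192), 0 for H3R2me2a (104) and 1 for H3R8me2a (230). They were 0 for H4R3me1 (169), 38 for H3K27ac (2293), and 0 for H4R3me2s in both WT (342) and Prmt1-dKO (54). At P14 they were 5 for H4R3me2s (1438), 24 for H4R3me2a (4259) and 31 for H3R2me2a (6204). For H3R8me2a (2546) and H4R3me1 (2203) they were 17 each. With a peak in at least 1 list they were at P7 34 for H4R3me2a (8778), 19 for H3R2me2a (8233) and 30 for H3R8me2a (7214). The same rule gave 35 for H4R3me1 (8067), and 60 for H4R3me2s in WT (10750) and 30 in Prmt1-dKO (8936). At P14 it gave 67 for H3R8me2a (12592) and 66 for H4R3me1 (11803). Summits within 1000 bp left, at P7, 12 for H4R3me2a (2160), 3 for H3R2me2a (1485), 4 for H3R8me2a (1512) and 5 for H4R3me1 (1461). For H4R3me2s at P7 they left 16 in WT (2999) and 4 in Prmt1-dKO (1385). Equal list lengths gave 3 for H4R3me2s in Prmt1-dKO (1092) and 19 in WT (2849) at P7, and at P14 32 for H3R2me2a (6536) and 24 for H3R8me2a (4555). With 1 list left out, the groups of 3 lists kept the rule of 2 lists, while in groups of 2 the peaks of the 1 remaining list were counted, which is a looser rule. The ranges at P7 were 5 to 8 for H4R3me2a (1711 to 1804), 10 to 15 for H3R2me2a (5299 to 5342) and 18 for H3R8me2a (4621 to 4724). They were 17 to 23 for H4R3me1 (4892 to 5556), 35 to 48 for H4R3me2s in WT (7257 to 7397) and 12 to 23 in Prmt1-dKO (5062 to 6030). At P14 they were 31 to 41 for H4R3me2a (7557 to 8472) and 29 to 34 for H4R3me2s (4423 to 5329).

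With counts of nuclear protein-coding genes as the denominator the RP share in sorted cells was 4.67% in WT and 7.51% in Prmt1-dKO. The cause of these changes was not tested, beyond the smaller number of libraries or lists in fits that leave 1 out.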
